A study of Homo sapiens with 8 samples.

Results

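Transcripts of 8 genes that write or read histone acetylation were followed across 4 treatments of 92.1, an established line of human uveal melanoma, the commonest tumour arising inside the adult eye. The genes were taken by symbol from the deposited table: the acetyltransferases EP300, CREBBP, KAT2A, KAT2B, KAT5 and HAT1 and the BET readers BRD2 and BRD3. All 8 were found among 18406 gene symbols, and all 8 were among the 13320 with a mean value of at least 10, which were tested. The groups, 2 libraries each, were trametinib plus panobinostat (the combination), trametinib alone at 10 nM, panobinostat alone at 10 nM, and vehicle (DMSO), all for 24 h in 1 cell line. Trametinib inhibits the kinases MEK1 and MEK2 of the ERK pathway, and panobinostat inhibits histone deacetylases. The labels of the combination give 10 nM without saying whether it holds for each drug, and the labels of the panobinostat libraries name that drug yet call it a MEK inhibitor, so the drug name was followed. The treatment text of the 4 vehicle and trametinib libraries names no panobinostat, and a genome build (hs37d5) is listed for those 4 libraries and for none of the 4 with panobinostat. If the sets were prepared or processed apart, which the labels do not state, that cannot be told apart from panobinostat in any comparison between them. Trametinib against vehicle and the combination against panobinostat stay within a set.

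Acetyltransferases move an acetyl group from acetyl-CoA onto lysines of histones and other proteins, and histone deacetylases take it off again. BET proteins hold bromodomains, pockets that bind acetylated lysine, and carry transcription factors and elongation factors to acetylated chromatin. Deacetylase inhibitors such as panobinostat raise histone acetylation by blocking its removal. The acetyltransferases described here add the same mark, and the BET readers bind it.

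Each value below is a read count divided by the authors' size factor for its library, called the value. Changes are differences of log2(value + 1) with their standard error (SE) from limma, fitted over all 8 libraries, and passing means an adjusted p (Benjamini-Hochberg, over all 13320 genes) below 0.05. The libraries held between 6897784 and 16861001 reads, and the 8 genes had from 94 reads (KAT2A and KAT2B) to 9265 reads (BRD2) in a library. Trametinib replicate 2 stood apart, with 5362 genes at 0 against 3743 in trametinib replicate 1 and 2222 to 2890 in the other 6 libraries. The changes of the 8 genes that passed and use it, and the list medians with trametinib further down, are therefore also given without it. The ERK-dependent gene DUSP6 was at 3.51 and 4.56 in the combination, 0 and 0 under trametinib, 583 and 627 under panobinostat, and 567 and 577 in vehicle. All 8 melanocytic markers looked for (among them MITF, SOX10 and PMEL) were detected. They summed to 184239 to 186236 in the combination, 210931 to 222904 under trametinib, 123525 to 127580 under panobinostat and 117998 to 125588 in vehicle. The markers of any 1 other cell type summed to at most 1571. One of the 8, DCT, was at 236 to 258, 1912 to 1984, 5.1 to 10.1 and 4.75 to 14.4 in the same groups. Of 4 endothelial markers CDH5 was at 0 throughout, PECAM1 and KDR stayed under 10, and VWF moved with treatment, at 30.4 to 41.0 in the combination, 85.4 to 144 under trametinib, 0 to 3.06 under panobinostat and 1.2 to 1.6 in vehicle. The 5 fibroblast markers summed to 1218 to 1276, 761 to 1020, 969 to 1000 and 391 to 410 in the same groups, mostly from COL1A1 and LUM. The 3 leukocyte markers summed to 945 to 1048, 763 to 920, 1503 to 1571 and 672 to 696, mostly from CD68, and the 5 epithelial markers to 62.0 to 132, 37.2 to 89.3, 24.2 to 42.8 and 23.8 to 24.1. The part of these markers in the results was not tested. In bulk RNA, fewer cells of a kind and less RNA per cell cannot be told apart.

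Against vehicle, trametinib raised CREBBP, EP300 and BRD3 and lowered HAT1 and KAT2A, so that 3 of the 8 genes rose, 2 fell and 3 did not pass. Of all tested genes 23.7% rose and 27.4% fell in that comparison. Panobinostat lowered CREBBP, KAT2A, KAT5, HAT1 and BRD2, so 0 rose and 5 fell, where 15.0% of all tested genes rose and 15.6% fell. The combination lowered those 5 genes as well, with 0 rising, where 24.5% of all tested genes rose and 25.5% fell. The median log2 change of the 8 genes was -0.38 in the combination, 0.09 with trametinib and -0.49 with panobinostat, beside 0.03, -0.07 and 0.00 over all tested genes. These 3 comparisons share the vehicle libraries. With panobinostat the number falling was lowest without vehicle replicate 2 and next lowest without panobinostat replicate 1. In the combination it was lowest without combination replicate 2 or vehicle replicate 2. Fewer of all tested genes also passed in each of these fits.

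**Figure D1:**
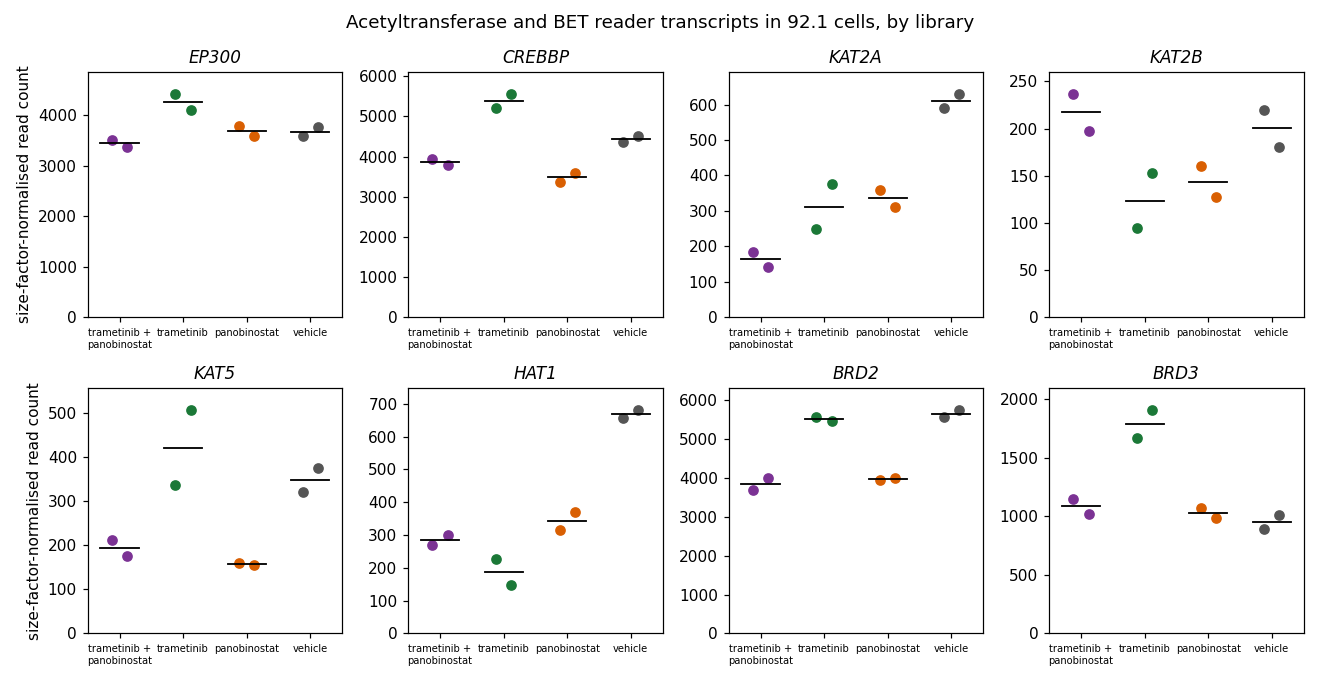
Size-factor-normalised read count of each gene (vertical axis, starting at 0) in every library, by treatment; points are libraries and bars are the mean of 2. BRD2, KAT5 and CREBBP are low in both treatments that contain panobinostat, BRD3 is high with trametinib alone, and KAT2A is lowest in the combination.

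**Figure D2:**
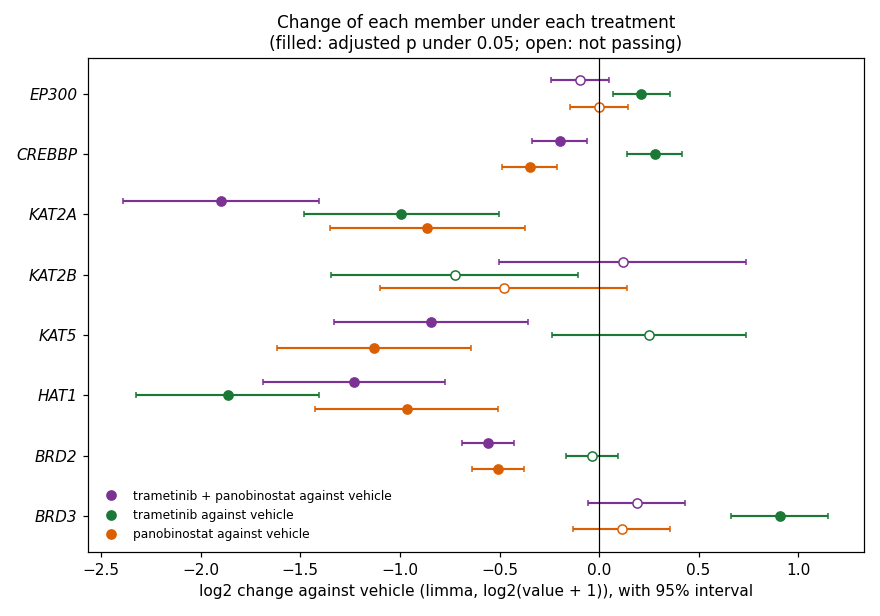
Log2 change against vehicle for the combination, trametinib and panobinostat, with 95% intervals from limma; filled points passed and open points did not. HAT1 and KAT2A lie left of 0 under every treatment, and only BRD3, CREBBP and EP300 have filled points right of 0, each with trametinib alone.

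The bases before the transcription starts are shown for HAT1 and KAT2A, which passed as lower in every treatment, and for KAT5, which had the lowest log2 change with panobinostat of the 8 genes. The sequences are RefSeq's on GRCh38.p14, each the 250 bases before the annotated start, 5′ to 3′ on the gene's strand. Capitals mark every match, on either strand, to the letters searched.

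HAT1: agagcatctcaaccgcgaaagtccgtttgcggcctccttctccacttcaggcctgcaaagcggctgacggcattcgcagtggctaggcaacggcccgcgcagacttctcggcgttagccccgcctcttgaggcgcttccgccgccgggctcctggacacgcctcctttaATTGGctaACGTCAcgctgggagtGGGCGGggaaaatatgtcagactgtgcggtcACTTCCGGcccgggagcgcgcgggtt
KAT2A: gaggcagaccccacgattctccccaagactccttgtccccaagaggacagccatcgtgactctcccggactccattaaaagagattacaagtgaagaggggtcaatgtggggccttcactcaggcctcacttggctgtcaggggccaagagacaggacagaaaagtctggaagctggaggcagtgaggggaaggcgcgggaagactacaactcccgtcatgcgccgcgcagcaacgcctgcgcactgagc
KAT5: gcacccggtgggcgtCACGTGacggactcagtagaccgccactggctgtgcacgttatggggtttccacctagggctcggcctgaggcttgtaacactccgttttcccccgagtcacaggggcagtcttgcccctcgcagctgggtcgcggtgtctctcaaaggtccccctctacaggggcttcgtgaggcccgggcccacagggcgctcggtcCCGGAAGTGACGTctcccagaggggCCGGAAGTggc

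The HAT1 window is chr2:171922211-171922460 on the plus strand, the KAT2A window chr17:42121368-42121617 on the minus strand and the KAT5 window chr11:65712002-65712251 on the plus strand. The letters searched were TGACGT, the core bound by CREB-type factors, in 7.1% of 35116 promoter windows of that length, its full palindrome TGACGTCA (1.65%), the E-box CACGTG (6.34%), the GC box GGGCGG (42.6%), the ETS motif CCGGAAGT (3.42%), the CCAAT box (32%), the TATA box TATAAA (10.7%) and the E2F forms TTTCCCGC, TTTGGCGC, TTTCGCGC and TTTGCCGC (2.79% for any of them). HAT1 had 1 match each to the CCAAT letters, the CREB core, the GC box and the ETS motif. In KAT5 there were 1 match to the E-box, 2 to the ETS motif and 1 to the CREB core, which shares 1 base with the upstream ETS match. The KAT2A window held none of these letters. CREBBP and BRD2, which also passed as lower with panobinostat and in the combination, have 2 and 4 windows, whose only matches were to the GC box: 3 and 4 in those of CREBBP, and 1, 1, 0 and 1 in those of BRD2. None of the 12 windows listed for the 8 genes held an E2F form, the full palindrome or TATAAA.

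EP300 and CREBBP encode p300 and CBP, a pair of large closely related acetyltransferases that serve as coactivators for many transcription factors and acetylate histone H3 at enhancers. EP300 had values of 3516 and 3373 in the combination, 4421 and 4115 under trametinib, 3782 and 3587 under panobinostat, and 3582 and 3780 in vehicle. The trametinib libraries lay above all others, and the panobinostat and vehicle libraries overlapped. EP300 rose by 0.21 ± 0.064 with trametinib against vehicle (log2 change ± SE, limma adjusted p = 0.0207). Its change with panobinostat was 0.00 ± 0.064, with a 95% interval from -0.14 to 0.15. EP300 fell in the combination against trametinib (-0.31 ± 0.064, adjusted p = 0.00588). The trametinib call ended without trametinib replicate 1 (0.16) or vehicle replicate 1 (0.17), or with only the groups compared in the fit (0.21), and it was 0.26 without trametinib replicate 2. The change from trametinib to the combination no longer passed without combination replicate 2 (-0.28), and was -0.36 without trametinib replicate 2.

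CREBBP moved in opposite directions under the single drugs. Its values were 3946 and 3785 in the combination, 5216 and 5556 under trametinib, 3371 and 3596 under panobinostat, and 4367 and 4505 in vehicle. The 4 groups did not overlap, with trametinib highest, vehicle next, then the combination and panobinostat. CREBBP rose with trametinib (0.28 ± 0.062, limma adjusted p = 0.00434) and fell with panobinostat (-0.35 ± 0.062, adjusted p = 0.00274). It fell in the combination against trametinib (-0.48 ± 0.062, adjusted p = 0.000413) and, less far, against vehicle (-0.20 ± 0.062, adjusted p = 0.0234). Without trametinib replicate 2, its change was 0.23 against vehicle and -0.43 from trametinib to the combination, and both still passed. The call against vehicle in the combination ended without combination replicate 1 (-0.23) or 2 (-0.17) or vehicle replicate 1 (-0.22) or 2 (-0.18).

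KAT2A and KAT2B encode GCN5 and PCAF, related acetyltransferases that occupy the same place in the SAGA and ATAC coactivator complexes. KAT2A was at 185 and 143 in the combination, 248 and 377 under trametinib, 360 and 311 under panobinostat, and 589 and 629 in vehicle. Vehicle was highest, the single drugs overlapped in the middle and the combination was lowest. The fall against vehicle was -1.90 ± 0.22 in the combination (limma adjusted p = 8.08e-05), -0.99 ± 0.22 with trametinib (adjusted p = 0.00417) and -0.86 ± 0.22 with panobinostat (adjusted p = 0.0152), which as folds is 0.268, 0.503 and 0.55. The combination was also below trametinib (-0.91 ± 0.22, adjusted p = 0.0117) and below panobinostat (-1.03 ± 0.22, adjusted p = 0.00777). KAT2A was the 1 gene of the 8 that passed between the combination and panobinostat, where 10.9% of all tested genes rose and 13.1% fell. That call ended without combination replicate 2 (-0.85) or panobinostat replicate 1 (-0.93). How many of the 8 genes passed changed with the library left out, as did the number over all tested genes.

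The panobinostat call for KAT2A ended without panobinostat replicate 1 (-0.97) or 2 (-0.76) or vehicle replicate 1 (-0.91) or 2 (-0.82), with all 4 values below 0. From trametinib to the combination it ended without combination replicate 2 (-0.72) and with only those groups in the fit, and the change was -0.60 without trametinib replicate 2. Against vehicle, the change with trametinib was -1.29 without trametinib replicate 2 and -0.69 without replicate 1, and both passed. In the GENCODE 29 annotation 13% of the merged KAT2A exon bases are shared with AC099811.2 on the same strand, which has no row under that symbol in the table.

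KAT2B took another course. Its values were 236 and 198 in the combination, 94.3 and 153 under trametinib, 160 and 127 under panobinostat, and 220 and 181 in vehicle. The combination and vehicle overlapped, and each single drug lay below both. Neither single drug passed against vehicle (-0.73 ± 0.28 with trametinib, limma adjusted p = 0.0515, and -0.48 ± 0.28 with panobinostat, adjusted p = 0.228), and the combination was at 0.12 ± 0.28 against vehicle, with an interval from -0.50 to 0.74. The panobinostat change passed with only the groups compared in the fit (-0.48). From panobinostat to the combination the change was 0.60 ± 0.28 (limma adjusted p = 0.157), and it too passed with only those groups in the fit. KAT2B rose in the combination against trametinib (0.84 ± 0.28, adjusted p = 0.0419). That call held without trametinib replicate 2 (1.19) and ended without any of the other 7 libraries, with values of 0.50 without trametinib replicate 1, 0.72 and 0.97 without combination replicates 1 and 2, and 0.84 without either panobinostat library or either vehicle library. It also ended with no filter on low values, with the replicate number as a block, with only those groups in the fit and with edgeR (0.79). The change with trametinib against vehicle passed without trametinib replicate 2 (-1.07), with DESeq2 (-0.70), with a pseudocount of 10 (-0.68) and with a mean of at least 50 required (-0.73).

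KAT5 encodes TIP60, the acetyltransferase of the NuA4 complex, which acetylates histones H4 and H2A and takes part in the DNA damage response. It was at 211 and 176 in the combination, 337 and 505 under trametinib, 160 and 155 under panobinostat, and 320 and 375 in vehicle. Every library with panobinostat was below every library without it, and the trametinib and vehicle libraries overlapped. KAT5 fell with panobinostat (-1.13 ± 0.22, limma adjusted p = 0.00406), in the combination against vehicle (-0.84 ± 0.22, adjusted p = 0.00955) and in the combination against trametinib (-1.09 ± 0.22, adjusted p = 0.0045; -0.80 without trametinib replicate 2, still passing). With trametinib its change against vehicle was 0.25 ± 0.22 (interval -0.24 to 0.74), and it turned to -0.04 without trametinib replicate 2 and passed at 0.54 without replicate 1. The panobinostat call ended without vehicle replicate 2 (-1.02), and the call in the combination against vehicle without vehicle replicate 2 (-0.73) or combination replicate 2 (-0.72).

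Exons of KAT5 share 800 bases, 32.2% of their merged length in GENCODE 29, with RNASEH2C on the opposite strand, and reads from there cannot be assigned unless strand was used. RNASEH2C, a subunit of ribonuclease H2, had values of 211 and 345 in the combination, 86.3 and 80.4 under trametinib, 224 and 224 under panobinostat, and 204 and 250 in vehicle. Against vehicle RNASEH2C changed by -0.01 ± 0.25 with panobinostat (limma adjusted p = 0.98) and 0.25 ± 0.25 in the combination (adjusted p = 0.438). It fell with trametinib (-1.43 ± 0.25, adjusted p = 0.00125) and rose from trametinib to the combination (1.68 ± 0.25, adjusted p = 0.00101), where KAT5 fell. Its interaction was 1.70 ± 0.36 (adjusted p = 0.0103). The part of the shared bases in the changes of KAT5 was not tested.

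HAT1 encodes the acetyltransferase that acetylates newly made histone H4 before it is assembled into chromatin. Its values were 269 and 300 in the combination, 226 and 148 under trametinib, 314 and 371 under panobinostat, and 657 and 680 in vehicle. The groups did not overlap, with trametinib lowest and vehicle far above the rest. HAT1 fell in the combination (-1.23 ± 0.20, limma adjusted p = 0.000795), with trametinib (-1.87 ± 0.20, adjusted p = 5.61e-05) and with panobinostat (-0.97 ± 0.20, adjusted p = 0.00648), a fold of 0.426, 0.274 and 0.512. Without trametinib replicate 2 the trametinib change was -1.56. The panobinostat call ended without panobinostat replicate 1 (-0.85) or vehicle replicate 2 (-0.94).

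In the combination HAT1 was higher than with trametinib (0.63 ± 0.20, limma adjusted p = 0.0391). That call held without trametinib replicate 1 (0.94) and ended without each of the other 7 libraries, with 0.33 without trametinib replicate 2, 0.71 and 0.56 without combination replicates 1 and 2, and 0.63 without either panobinostat library or either vehicle library. It ended with edgeR (0.58), with no filter, with the replicate block and with only those groups in the fit (0.63 each).

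BRD2 and BRD3 are BET proteins, each with a pair of bromodomains that bind acetylated histones. BRD2 had values of 3696 and 4007 in the combination, 5574 and 5469 under trametinib, 3955 and 4001 under panobinostat, and 5576 and 5741 in vehicle. The libraries fell into a low set with panobinostat and a high set without it, whether or not trametinib was present, and these sets are also those that the labels set apart. BRD2 fell in the combination against vehicle (-0.56 ± 0.058, limma adjusted p = 4.4e-05), with panobinostat against vehicle (-0.51 ± 0.058, adjusted p = 0.000256) and in the combination against trametinib (-0.52 ± 0.058, adjusted p = 0.000182). The change was -0.04 ± 0.058 with trametinib against vehicle (interval -0.17 to 0.10) and -0.05 ± 0.058 in the combination against panobinostat (interval -0.18 to 0.08). The 3 falls passed under all 17 alternatives run, and the last was -0.53 without trametinib replicate 2. Of the merged BRD2 exon bases 10.4% lie opposite the antisense transcript AL645941.3, which has no row under that symbol in the table.

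Against vehicle, BRD3 passed with trametinib alone and not in the combination or with panobinostat. It stood at 1148 and 1021 in the combination, 1666 and 1905 under trametinib, 1070 and 985 under panobinostat, and 888 and 1015 in vehicle. Both trametinib libraries were above all others, and the remaining groups lay close together. BRD3 rose with trametinib against vehicle (0.91 ± 0.11, limma adjusted p = 0.000103), a fold of 1.88, and was lower in the combination than with trametinib (-0.72 ± 0.11, adjusted p = 0.00101). Without trametinib replicate 2 these were 0.81 and -0.62, and both passed under all 17 alternatives. Its changes against vehicle were 0.19 ± 0.11 in the combination (interval -0.05 to 0.43) and 0.11 ± 0.11 with panobinostat (interval -0.13 to 0.36). In GENCODE 29, 20.9% of its merged exon bases lie opposite BRD3OS, which has no row under that symbol in the table.

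Adding panobinostat to trametinib changed all 8 genes past the threshold: KAT2B and HAT1 rose and the other 6 fell, where 17.6% of all tested genes rose and 15.2% fell. Fewer of the 8 genes, and fewer of all tested genes, passed without combination replicate 2. With only those groups in the fit 5 of the 8 passed, beside 2256 of all tested genes (4363 in the main fit). The interaction asks whether panobinostat acted differently with trametinib present, computed by subtracting the panobinostat effect in vehicle cells from that in trametinib-treated cells. It rests on the assumption that each drug was at 10 nM in the combination. Of the 8 genes, 2 passed with a higher and 2 with a lower value, where 10.2% and 9.04% of all tested genes did.

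The interaction of HAT1 was the largest of the 8 (1.60 ± 0.29, limma adjusted p = 0.00453), with a change of 0.63 on panobinostat with trametinib present and -0.97 without it. BRD3 had an interaction of -0.83 ± 0.15 (adjusted p = 0.00521), falling with trametinib present (-0.72) where its change without was 0.11. Both calls held under all 16 alternatives run, with 1.30 for HAT1 and -0.73 for BRD3 without trametinib replicate 2. The interaction calls of KAT2B (1.32 ± 0.39, adjusted p = 0.042) and EP300 (-0.31 ± 0.091, adjusted p = 0.0417) ended without any 1 of the 6 vehicle, panobinostat or combination libraries. Fewer of all tested genes also passed in each of those fits. Without vehicle replicates 1 and 2 in turn KAT2B was at 1.18 and 1.46 and EP300 at -0.27 and -0.35. Without panobinostat replicates 1 and 2 they were at 1.49 and 1.16 and at -0.27 and -0.35, and without combination replicates 1 and 2 at 1.19 and 1.45 and at -0.34 and -0.28. Without trametinib replicate 2 they passed at 1.67 and -0.36. With the replicate number as a block, neither passed.

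For the other 4 genes the interaction did not pass. BRD2 was at -0.01 ± 0.082 (interval -0.20 to 0.17) and CREBBP at -0.13 ± 0.087 (interval -0.33 to 0.07). KAT2A was at -0.04 ± 0.31 (interval -0.74 to 0.65) and KAT5 at 0.04 ± 0.31 (interval -0.65 to 0.73), intervals several times wider than those of BRD2 and CREBBP. Without trametinib replicate 2 the interaction of KAT2A changed sign, to 0.26.

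**Figure D3:**
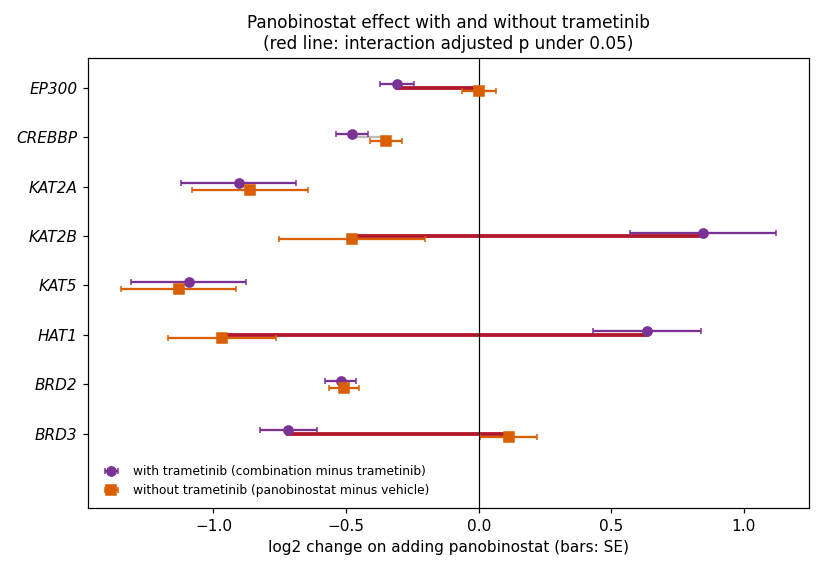
Log2 change on adding panobinostat with trametinib present (circles, combination minus trametinib) and without it (squares, panobinostat minus vehicle), bars showing the SE; red lines join the values of genes whose interaction passed. The symbols of BRD2, KAT5 and KAT2A nearly coincide, those of HAT1 and KAT2B lie on opposite sides of 0, and BRD3 falls only with trametinib present.

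Within a library, the ratio of related genes does not depend on scaling. The ratio of KAT2A to KAT2B was 0.783 and 0.724 in the combination, 2.61 and 2.46 under trametinib, 2.24 and 2.43 under panobinostat, and 2.67 and 3.47 in vehicle. KAT2A had more reads than KAT2B in every library but those of the combination, where the order was reversed. Per kilobase of merged exons the order in the combination was not reversed. KAT2A was at 52.7 ± 9.55 and KAT2B at 44.9 ± 5.66 (SD, n = 2 each), and their libraries overlapped. The mean log2 ratio was -0.41 ± 0.079 in the combination and 1.61 ± 0.27 in vehicle (SD, n = 2 each), a difference of -2.02 (exact two-sided permutation p = 0.333, the smallest that 2 against 2 libraries can give). BRD2 over BRD3 was 3.22 and 3.92 in the combination, 3.34 and 2.87 under trametinib, 3.69 and 4.06 under panobinostat, and 6.27 and 5.65 in vehicle. The 3 treatments lay below vehicle, with mean log2 differences of -0.75, -0.94 (-0.83 without trametinib replicate 2) and -0.62 for the combination, trametinib and panobinostat. EP300 over CREBBP was 0.891 and 0.891 in the combination, 0.848 and 0.741 under trametinib, 1.12 and 0.997 under panobinostat, and 0.820 and 0.839 in vehicle. Panobinostat had the highest EP300 share of the 4 groups, with a log2 difference of 0.35 from vehicle (exact p = 0.333).

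**Figure D4:**
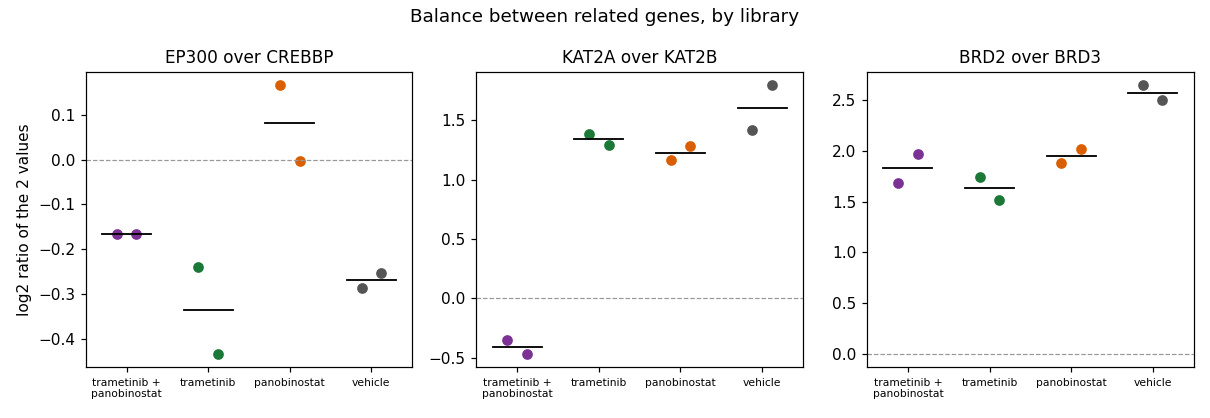
Log2 ratio of the values of 2 related genes, not divided by gene length, in every library, by treatment. Points are libraries, bars are means of 2 and the dashed line marks equal values. KAT2A over KAT2B is below 0 in the combination and above 1 elsewhere, and BRD2 over BRD3 is highest in vehicle.

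Levels of different genes can be set side by side only per length, here as the value per kilobase of merged GENCODE 29 exons, which may differ from the annotation the authors counted on. BRD2 was highest in every group, at 695 ± 39.7 per kilobase in the combination, 996 ± 13.4 with trametinib, 718 ± 5.83 with panobinostat and 1021 ± 21.0 in vehicle (SD, n = 2 each). KAT2B was lowest, at 44.9 ± 5.66, 25.6 ± 8.55, 29.7 ± 4.83 and 41.4 ± 5.73 in the same groups. HAT1 changed place in the order. In the combination (175 ± 13.2) it overlapped BRD3 (177 ± 14.7) at rank 5, with trametinib (115 ± 33.9) it overlapped KAT5 and KAT2A at rank 6, with panobinostat (211 ± 24.8) it stood at rank 4, and in vehicle (411 ± 10.2) it was at rank 2 and overlapped CREBBP (411 ± 9.02). In vehicle BRD3 (155 ± 14.6) and KAT5 (140 ± 15.7) overlapped, and in the combination EP300 (359 ± 10.5) and CREBBP (358 ± 10.6) did, as did KAT2A (52.7 ± 9.55) and KAT2B.

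The genes whose profile over the 8 libraries was most like that of each member were found by Pearson's r of log2(value + 1). These are descriptions over libraries that share 4 treatments. They were NASP (r = 0.991) and RFC5 (0.990) for HAT1, ELAC2 (0.995) and SSU72 (0.993) for KAT2A, and LRRCC1 (0.937) and NDUFB11 (0.925) for KAT2B. For KAT5 they were TGFB1I1 (0.988) and GGNBP2 (0.985), for EP300 GGA3 (0.973) and KDELR3 (0.971), and for CREBBP MTIF3 (0.993) and PANK3 (0.982). BRD2 was most like ZFX (0.996) and MOB1A (0.995), and BRD3 was most like OTX1 (0.987) and UBA3 (0.986).

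Most partners of HAT1 and other chaperones of histones H3 and H4 fell under each treatment. Of 8 genes listed and tested, 0 rose and 7 fell in the combination, 0 rose and 8 fell with trametinib, and 0 rose and 6 fell with panobinostat. Over all tested genes 24.5%, 23.7% and 15.0% rose and 25.5%, 27.4% and 15.6% fell in that order. These shares are the ones to set beside the counts of every list below. Their median log2 changes were -1.70, -2.22 and -1.18, beside 0.03, -0.07 and 0.00 over all genes. NASP, a chaperone of free H3 and H4, was at 410 and 479 in the combination, 340 and 169 under trametinib, 675 and 653 under panobinostat, and 1468 and 1575 in vehicle. CHAF1A, the large subunit of chromatin assembly factor 1, was at 103 and 114, 156 and 82.4, 348 and 340, and 1089 and 1115 in those groups. IPO4, an importin that carries H3 and H4 into the nucleus, changed by -2.56 ± 0.16, -2.93 ± 0.16 and -1.17 ± 0.16 under those treatments in that order (limma adjusted p = 2.25e-06, 7.85e-07 and 0.000831). In the same order ASF1B changed by -3.41 ± 0.33, -3.63 ± 0.33 and -1.91 ± 0.33, and RBBP4 by -0.96 ± 0.095, -0.39 ± 0.095 and -0.67 ± 0.095. In the interaction 5 of the 8 passed as higher and 0 as lower, where 10.2% and 9.04% of all tested genes did. MKI67, a proliferation marker, lay below vehicle in every treated library, at 327 and 335 in the combination, 54.2 and 56.3 under trametinib, 646 and 647 under panobinostat, and between 1906 and 2106 in vehicle. Its part in the falls of HAT1 and these genes was not tested.

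The complexes that hold KAT2A and KAT2B differ from that of KAT5, and their subunits were counted apart. Of 24 tested subunits of SAGA and ATAC (25 listed), 4 rose and 7 fell in the combination, 5 rose and 5 fell with trametinib, and 1 rose and 7 fell with panobinostat, with medians of -0.24, 0.07 and -0.24. TAF9, a histone-fold subunit, changed by -0.96 ± 0.10, -0.95 ± 0.10 and -0.64 ± 0.10 in those treatments. The ATAC subunit WDR5 changed by -1.40 ± 0.14, -1.10 ± 0.14 and -0.89 ± 0.14. TAF10 rose under each treatment (0.55 ± 0.096, 0.46 ± 0.096 and 0.39 ± 0.096). USP22, the ubiquitin protease of SAGA, rose with trametinib (0.74 ± 0.092) and TAF9B fell with panobinostat (-0.74 ± 0.15), and neither passed in the other treatments. Of 16 tested TIP60/NuA4 subunits (17 listed), 1 rose and 8 fell in the combination, 3 rose and 8 fell with trametinib, and 0 rose and 4 fell with panobinostat, with medians of -0.34, -0.25 and -0.18. The AAA+ ATPases RUVBL1 and RUVBL2 changed by -1.68 ± 0.22 and -0.80 ± 0.16 in the combination and by -1.59 ± 0.22 and -1.15 ± 0.16 with trametinib. MORF4L1, a chromodomain subunit, rose with trametinib (0.63 ± 0.075) and in the combination (0.23 ± 0.075). EP400, the scaffold ATPase, fell in the combination (-0.41 ± 0.072) and with trametinib (-0.22 ± 0.072). With panobinostat the 3 leading subunits were YEATS4 (-1.01 ± 0.24), ING3 (-1.07 ± 0.27) and ACTL6A (-0.60 ± 0.18). YEATS4 also fell in the combination (-0.98 ± 0.24) and with trametinib (-1.31 ± 0.24). ING3 also fell in the combination (-1.18 ± 0.27) and ACTL6A with trametinib (-0.84 ± 0.18).

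Among partners of BET proteins and of P-TEFb, the elongation kinase they bring to genes, 14 were tested of 15 listed. Counts were 3 higher and 3 lower in the combination, 4 and 4 with trametinib, and 3 and 3 with panobinostat. MEPCE, the capping enzyme of the 7SK RNA that holds P-TEFb inactive, fell in all 3 treatments (-1.55 ± 0.12, -0.96 ± 0.12 and -1.52 ± 0.12). It was at 368 and 388, 537 and 609, and 363 and 409 in those treatments and at 1147 and 1076 in vehicle. In the same order, the elongation scaffolds AFF1 (1.04 ± 0.12, 0.65 ± 0.12 and 0.54 ± 0.12) and AFF4 (0.42 ± 0.060, 0.65 ± 0.060 and 0.22 ± 0.060) rose. ELL2 also rose under each treatment (0.79 ± 0.15, 0.66 ± 0.15 and 0.92 ± 0.15). MED1, a Mediator subunit, fell under each treatment (-0.72 ± 0.075, -0.32 ± 0.075 and -0.35 ± 0.075).

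Factors that bind CBP and p300, with CREB family members, gave 13 tested genes of 14 listed, of which 6 rose and 6 fell in the combination, 7 rose and 4 fell with trametinib, and 2 rose and 3 fell with panobinostat. CITED2, which competes with HIF1A for a domain of CBP and p300, was at 2289 and 2251 in the combination, 291 and 156 under trametinib, 1394 and 1292 under panobinostat, and 311 and 309 in vehicle. It was high in every library with panobinostat, a rise of 2.87 ± 0.23 in the combination and 2.11 ± 0.23 with panobinostat (limma adjusted p = 8.02e-06 and 0.00019). CITED1 fell in the combination, with trametinib and with panobinostat (-0.65 ± 0.099, -0.55 ± 0.099 and -0.55 ± 0.099). The CREB coactivator CRTC2 rose in the combination (0.37 ± 0.079), with trametinib (0.73 ± 0.079) and with panobinostat (0.43 ± 0.079). ARNT rose with trametinib (0.89 ± 0.12) and in the combination (0.87 ± 0.12). CREM fell with trametinib (-0.96 ± 0.14) and in the combination (-1.19 ± 0.14). NFATC1 fell in the combination (-1.40 ± 0.17) and with trametinib (-1.36 ± 0.17).

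All 16 other acetyltransferases listed were tested, and 3 rose and 7 fell in the combination, 6 rose and 4 fell with trametinib, and 1 rose and 4 fell with panobinostat. NCOA3, a nuclear receptor coactivator, rose under each treatment (0.93 ± 0.088, 1.18 ± 0.088 and 0.83 ± 0.088). ESCO2, which acetylates cohesin rather than histones, fell under each (-2.88 ± 0.21, -3.73 ± 0.21 and -1.69 ± 0.21). NAA50, an N-terminal acetyltransferase, fell under each as well (-1.35 ± 0.13, -1.52 ± 0.13 and -0.51 ± 0.13). KAT6A fell with panobinostat (-0.34 ± 0.066) and in the combination (-0.35 ± 0.066), and did not pass with trametinib (0.01 ± 0.066). Of 23 other readers of acetyl-lysine, all tested, 5 rose and 9 fell in the combination, 6 rose and 10 fell with trametinib, and 3 rose and 7 fell with panobinostat. ATAD2, a bromodomain ATPase, was at 265 and 239 in the combination, 229 and 293 under trametinib, 458 and 476 under panobinostat, and 2079 and 2078 in vehicle. BAZ1B fell under each treatment (-1.06 ± 0.10, -1.60 ± 0.10 and -0.71 ± 0.10), and BAZ2B rose in the combination (1.24 ± 0.093) and with trametinib (1.38 ± 0.093). PHIP fell with panobinostat (-0.78 ± 0.11) and with trametinib (-0.68 ± 0.11). TRRAP and YEATS2 each stand in 2 of the 7 lists.

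Without trametinib replicate 2, an alternative chosen after seeing the data, the list medians were taken again. The list of HAT1 partners and chaperones then had a median of -1.83 with trametinib (-0.01 over all genes). In the interaction its median was 1.24 (0.01 over all genes). NASP was at -2.16, CHAF1A at -2.82 and USP22 at 0.60 on the log2 scale with trametinib. Medians with trametinib were 0.06 for SAGA and ATAC, -0.14 for TIP60/NuA4 and 0.15 for BET partners and P-TEFb. They were 0.14 for factors that bind CBP and p300 and -0.02 for other acetyltransferases. The median of the other readers was 0.00 without that library and 0.09 with it.

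**Figure D5:**
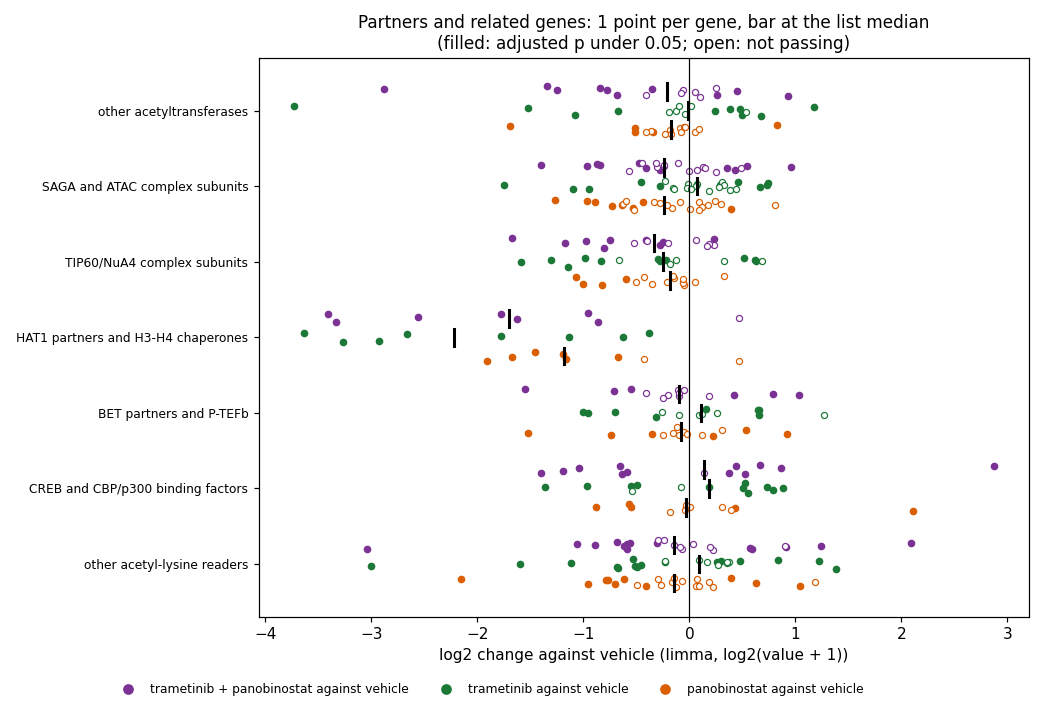
Log2 change against vehicle of every tested gene in the 7 lists of partners and related genes, for the combination, trametinib and panobinostat; filled points passed, open points did not, and black bars mark list medians. The list of HAT1 partners and H3-H4 chaperones has medians of -1.70, -2.22 and -1.18, and the other lists have medians between -0.34 and 0.18.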

How the data were processed

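RNA-seq libraries had been made from total RNA with an Ovation Human FFPE kit, per the labels' protocols. TopHat2 2.0.13, Cufflinks 2.2.1 and DESeq2 are named in the submitters' processing notes; the annotation, counting and use of strand are not given in the sources used here. Values as deposited are a normalised signal, each gene's read count divided by the authors' size factor for its library; whole reads were recovered for 100% of values (tolerance 1e-06 reads). The labels do not say whether replicates are separate cultures, and p-values therefore cover only library-to-library spread, possibly technical.

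log2(value + 1) was fitted with limma 3.58.1 (R 4.3.3, mean-variance trend) over all 8 libraries for 13320 of 18406 genes with a mean of at least 10, with 4 residual and 5.32 prior degrees of freedom, and p-values were Benjamini-Hochberg adjusted over those genes. Such changes understate those of low genes. Ratios of related genes were compared by exact permutation, whose smallest p is 0.333. The alternatives were pseudocounts of 0.25 and 10, no filter and a mean of at least 50, edgeR 4.0.16 and DESeq2 1.42.0 on recovered reads, TMM scaling, a replicate block, only the groups compared, and each library left out. The model was also run on simulated counts, which had the same spread per gene in every group. In the data the trametinib replicates correlated less (r = 0.897) than those of the other groups (0.974 to 0.991). The simulation therefore cannot test the effect of that difference. The text names all 8 members, up to 3 genes per list, by adjusted p, in each comparison with vehicle, and the 2 genes most like each member, leaving out clone, small RNA and antisense symbols; RNASEH2C was added after its values were seen. 1 gene of the lists is not reported here by name. The members and lists were chosen with earlier results of these data known.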

Additional observations from a re-analysis of the deposited data

Results flagged for a closer look

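For 4 of the 8 genes the panobinostat effect passed as different with and without trametinib, by the interaction in limma over all 13320 genes. Of these, 2 were higher and 2 lower, where 10.2% and 9.04% of all tested genes were. HAT1 had an interaction of 1.60 on the log2 scale (adjusted p = 0.00453) and BRD3 of -0.83 (adjusted p = 0.00521). KAT2B had 1.32 (adjusted p = 0.042, from 0.000247 to 0.178 over 16 alternatives) and EP300 -0.31 (adjusted p = 0.0417, from 0.00425 to 0.174). HAT1 and BRD3 passed in all 16 alternatives, and KAT2B and EP300 passed in 8 of 16 each.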

How the results depend on the processing

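Of 28 results for the 8 genes that passed, 15 passed in every alternative run, and over all 472 alternatives of the 28 results 413 still passed, 59 did not and 0 changed direction. With no filter or with the replicate block, 2 genes passed the interaction. With only the groups compared in the fit, 7335 genes passed with panobinostat against vehicle, 2256 with the combination against trametinib (5 of the 8 genes) and 5343 with the combination against panobinostat (2 of the 8). Leaving out 1 library at a time gave 1971 to 6804 genes with panobinostat against vehicle, 2490 to 7383 with the combination against trametinib, 1686 to 5747 with the combination against panobinostat and 1308 to 6215 for the interaction. Among the 8 genes it gave 2 to 6, 4 to 7, 0 to 3 and 2 to 4 in the same order, and 3 to 5 with the combination against vehicle. The causes were not tested.

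Values that changed sign had not passed. EP300 with panobinostat was -0.0047 with DESeq2 and the interaction of KAT5 -0.0023 with edgeR. With 1 library left out, EP300 with panobinostat ranged from -0.037 to 0.040, KAT5 with trametinib from -0.041 to 0.54 and KAT2B in the combination against vehicle from -0.022 to 0.26. The combination against panobinostat ranged from -0.11 to 0.010 for BRD2 and -0.0086 to 0.16 for BRD3, and the interaction from -0.34 to 0.26 for KAT2A, -0.25 to 0.33 for KAT5 and -0.071 to 0.046 for BRD2.

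Same-numbered replicates did not deviate together (correlations from -0.023 to 0.022 between groups), so the values gave no sign of pairing by number. A pairing that leaves no shared deviation cannot be seen in this way. With the replicate number as a block, 6673 genes passed with trametinib against vehicle, 3879 with panobinostat, 6541 with the combination against vehicle, 4229 with the combination against trametinib, 3027 with the combination against panobinostat and 2418 for the interaction. At 94 to 979 reads a library, KAT2A, KAT2B and KAT5 had standard errors over 3 times those of BRD2.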
